A study of Mus musculus with 23 samples.

Results

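The 10 genes described here encode cytokines, receptor chains and a kinase of the common gamma chain family, together with the related cytokine TSLP and its receptor. They were taken by name: the ligand genes Il7, Il15 and Tslp, the receptor chain genes Il2rg, Il7r, Il15ra, Il2ra, Il4ra and Crlf2, and the kinase gene Jak3. All 10 were among the 53402 gene identifiers counted, and all 10 were among the 19310 genes that passed the filter on low counts. Total RNA of mouse medullary thymic epithelial cells (mTECs), which display antigens of other organs to developing T cells, had been sequenced in 23 libraries. The cells were live, negative for CD45 and Ly51 and positive for EpCAM, and were sorted by MHC class II level into a high population (mTEChi) and a low population (mTEClo).

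The study compared mice lacking Aire (KO), the nuclear regulator of peripheral antigen genes in mTECs, with wild-type mice (WT), all of strain C57BL/6. There were 4 libraries of KO mTEChi, 7 of WT mTEChi, 4 of KO mTEClo and 8 of WT mTEClo. All KO libraries were male, with 2 of 5 weeks and 2 of 6 weeks in each population. WT mTEChi had 5 male and 2 female libraries, 2 of 4 weeks and 5 of 5 weeks. WT mTEClo had 5 male and 3 female libraries, 5 of 4 weeks and 3 of 5 weeks. The labels name no more of the KO allele than the gene, and do not say whether libraries came from separate animals, so p-values measure the spread between these libraries only.

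The common gamma chain, encoded by Il2rg, is shared by the receptors for IL-2, IL-4, IL-7, IL-9, IL-15 and IL-21, pairs with a private chain for each ligand and signals through the kinase JAK3. TSLP uses the IL-7 receptor alpha chain too, but joins it to the chain encoded by Crlf2 in place of the gamma chain. In the thymus, IL-7 from epithelial cells is known to sustain early T cell precursors, IL-15 presented on IL-15RA sustains cells of the natural killer and unconventional T cell lineages, and TSLP has been linked to regulatory T cell development.

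Upstream sequences are shown for 4 receptor genes. Il2rg and Il4ra were both higher in KO mTEChi, and Il7r and Il2ra are the members whose window held a searched motif. Each is the 250 bases before a RefSeq start on GRCm38.p6, 5′ to 3′ on the gene's strand, in lower case with motif matches in capitals.
Il2rg: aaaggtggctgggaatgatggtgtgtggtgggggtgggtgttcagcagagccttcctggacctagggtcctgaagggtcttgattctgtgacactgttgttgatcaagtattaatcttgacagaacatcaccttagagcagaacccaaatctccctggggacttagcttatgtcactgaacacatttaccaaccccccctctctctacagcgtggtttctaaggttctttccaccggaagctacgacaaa
Il4ra: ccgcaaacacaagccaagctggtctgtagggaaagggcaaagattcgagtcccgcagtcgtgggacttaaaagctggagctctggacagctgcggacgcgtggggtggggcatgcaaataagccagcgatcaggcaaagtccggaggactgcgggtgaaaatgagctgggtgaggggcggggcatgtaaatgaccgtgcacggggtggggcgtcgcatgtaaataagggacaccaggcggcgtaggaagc
Il7r: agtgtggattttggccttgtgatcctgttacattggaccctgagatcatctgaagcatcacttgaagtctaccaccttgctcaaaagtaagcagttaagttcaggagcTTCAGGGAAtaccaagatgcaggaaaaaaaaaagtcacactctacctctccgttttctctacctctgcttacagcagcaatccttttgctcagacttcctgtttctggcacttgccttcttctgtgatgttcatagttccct
Il2ra: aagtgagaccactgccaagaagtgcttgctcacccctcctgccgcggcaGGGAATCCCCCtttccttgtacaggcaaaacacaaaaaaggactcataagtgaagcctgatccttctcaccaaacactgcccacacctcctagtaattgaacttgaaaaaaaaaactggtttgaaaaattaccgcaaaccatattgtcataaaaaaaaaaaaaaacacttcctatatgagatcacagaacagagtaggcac

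The Il2rg window is chrX:101268256-101268505 on the minus strand, that of Il4ra chr7:125552021-125552270 on the plus strand, that of Il7r chr15:9529877-9530126 on the minus strand, and that of Il2ra chr2:11642542-11642791 on the plus strand. The receptor genes Il2ra (chr2:11642807-11693193) and Il15ra (chr2:11705290-11734317) lie close together on the plus strand, Il15 (chr8:82331632-82403222, minus strand) and Jak3 (chr8:71676296-71690575, plus strand) share a chromosome, and Il7 is at chr3:7569994-7613760 on the minus strand, all on GRCm38. Both strands of the windows were searched for the STAT element TTCNNNGAA, the interferon element GAAANNGAAA and the NF-kB consensus. Windows were at hand for 7 of the 10 genes, and none for Il7, Il15 and Tslp. Il7r held 1 STAT element, 142 bases before the start. Il2ra held 2 overlapping NF-kB matches on opposite strands, 201 and 200 bases before the start. The letters searched were not in the windows of Il2rg, Il15ra, Il4ra, Jak3 and Crlf2. Of 32851 such windows of the mouse genome, 7.02% held the STAT element, 2.98% the interferon element and 7.25% the NF-kB consensus.

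Library totals ran from 2528049 to 3106026 counts in KO mTEChi, 1602125 to 3231079 in WT mTEChi, 1639231 to 3938588 in KO mTEClo and 1628778 to 3883437 in WT mTEClo. The 6 libraries under 2000000 counts were replicates 1 and 2 of WT mTEChi, KO mTEClo and WT mTEClo. In KO mTEClo they were also the only libraries of 5 weeks. Leaving them out keeps KO mTEClo libraries of 6 weeks alone, so depth and age cannot be told apart in that group. Levels are given as CPM, counts scaled to library size with TMM factors. Aire averaged 29.3 ± 11.6 CPM in KO mTEChi and 818 ± 56.0 CPM in WT mTEChi, and 2.74 ± 3.53 CPM in KO mTEClo and 69.2 ± 33.4 CPM in WT mTEClo (SD, n = 4, 7, 4 and 8). The epithelial marker Epcam averaged 224 CPM in KO mTEChi, 244 in WT mTEChi, 249 in KO mTEClo and 254 in WT mTEClo. In bulk RNA, fewer cells of a type and less RNA per cell cannot be told apart.

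Among the ligands, Il15 and Il7 moved in opposite directions in KO mTEChi. Il15, whose product acts mainly when bound to IL-15RA on a neighbouring cell, had 147, 143, 139.7 and 165 CPM in KO mTEChi, against 40.2 to 63.1 CPM with a median of 60.3 in WT mTEChi. Every KO library lay far above every WT one. The increase was 2.82-fold (log2 1.50 ± 0.10, SE, adjusted p = 5e-12, edgeR's quasi-likelihood test with Benjamini-Hochberg adjustment over all genes tested, as for each adjusted p below). In mTEClo, Il15 had 31.9, 28.2, 30.4 and 34.7 CPM in KO and 19.7 to 27.9 CPM with a median of 22.4 in WT. The lowest KO library was just above the highest WT one, and the fitted change was 1.47-fold (log2 0.56 ± 0.12, adjusted p = 0.0019). With age as a term the Il15 change in mTEClo was 0.35 on the log2 scale (adjusted p = 0.19). Among males of 5 weeks it was 0.60, a value set against 1 WT mTEClo library, replicate 6. The increase of Il15 was larger in mTEChi than in mTEClo, by 0.94 ± 0.16 on the log2 scale (adjusted p = 4.9e-05), and by 0.73 among males of 5 weeks, with the same single WT mTEClo library.

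Il7 had 73.7, 88.4, 83.2 and 89.0 CPM in KO mTEChi, against 104 to 138 CPM with a median of 109 in WT mTEChi. The groups did not overlap, and Il7 fell by 0.46 ± 0.10 on the log2 scale (adjusted p = 0.00028). In mTEClo, where its level was higher, Il7 had 183, 193, 206 and 238 CPM in KO and 242 to 305 CPM with a median of 268 in WT. The highest KO library was just under the lowest WT library. Il7 fell there by 0.43 ± 0.09 on the log2 scale (adjusted p = 0.0013). Its KO effects in mTEChi and mTEClo differed by -0.03 on the log2 scale, with a 95% interval from -0.29 to 0.23. An antisense gene model on the opposite strand, Gm16685, shares 105 exonic bases with Il7 and had 2468 reads in all, and the libraries keep no strand, so Il7 counts carry that uncertainty.

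Tslp, the epithelial alarmin gene of the set, was rare. It had 0.439, 0.818, 2.40 and 0.418 CPM in KO mTEChi, which is 1, 2, 7 and 1 reads, against 3.62 to 8.93 CPM with a median of 7.43 in WT mTEChi. All WT mTEChi libraries were above all KO ones. Tslp fell by 2.7 ± 0.77 on the log2 scale (adjusted p = 0.005), from sums of 11 reads in KO and 130 in WT. Age as a term gave -4.10 on the same scale (adjusted p = 5.2e-05). In mTEClo, Tslp had 1.08, 0, 1.19 and 6.80 CPM in KO and 0.255 to 7.93 CPM with a median of 1.29 in WT. Single libraries stood high in both genotypes, KO replicate 4 at 6.80 CPM and WT replicates 6 and 8 at 7.93 and 4.80 CPM. The change in mTEClo was 0.11 ± 0.68 (adjusted p = 0.93), and the value was -1.57 without KO mTEClo replicate 4. Of 8 keratinised mTEC markers, 6 were lower and 0 higher in KO mTEChi, and their summed level was 131 to 252 CPM in KO and 298 to 506 CPM in WT. Of 9 fibroblast markers, 6 were lower and 1 higher, and they summed to 235 to 254 CPM in KO and 323 to 482 CPM in WT. Of all genes tested in that comparison 28% were lower and 25.7% higher. In mTEClo the keratinised mTEC markers were at 139 to 393 CPM in KO and 314 to 731 CPM in WT. No marker of either list was at 0 throughout a group. Their part in the result was not tested.

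**Figure D1:**
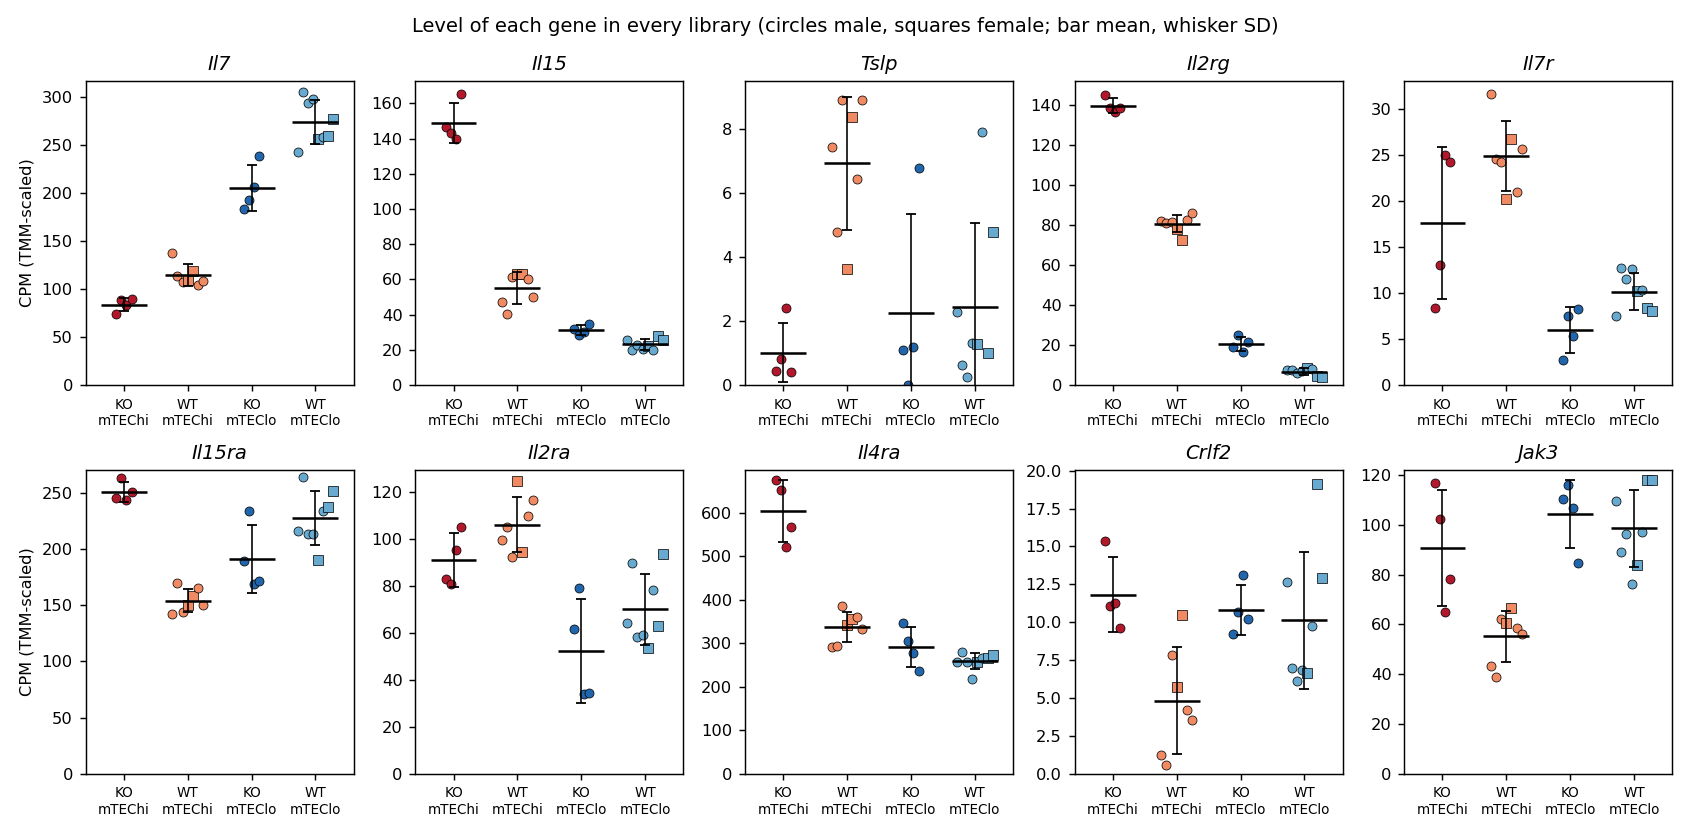
CPM of the 10 genes by group on linear axes from 0, with a circle for each male and a square for each female library, and a bar and whiskers for the mean and SD. Il15, Il2rg, Il15ra and Il4ra in KO mTEChi lay above all WT mTEChi libraries, and Il7 and Tslp lay below them.

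Among the receptor chains, Il2rg was higher in KO in both populations. Il2rg, the shared gamma chain, had 145, 138, 136 and 138 CPM in KO mTEChi, against 72.6 to 86.0 CPM with a median of 81.4 in WT mTEChi. The KO libraries formed a narrow band well above the WT band. The increase was 1.67-fold (log2 0.74 ± 0.11, adjusted p = 1.2e-06). In mTEClo, Il2rg had 18.9, 25.0, 16.4 and 21.4 CPM in KO and 4.2 to 8.65 CPM with a median of 7.14 in WT. Each KO mTEClo library was above every WT one, though far under the mTEChi libraries, and the increase was 2.87-fold (log2 1.52 ± 0.15, adjusted p = 3e-08). The log2 increase of Il2rg was smaller in mTEChi than in mTEClo by 0.78 ± 0.18 (interaction -0.78, adjusted p = 0.0017). Among males of 5 weeks, with 1 WT mTEClo library, the interaction was -0.64.

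Blood cells also use Il2rg, so their markers are given beside it. The pan-leukocyte gene Ptprc averaged 6.09 CPM in KO mTEChi and 22.5 CPM in WT mTEChi, and 10.7 CPM in KO mTEClo and 18.4 CPM in WT mTEClo. Cd3e, a T cell receptor subunit gene, averaged 1.54 CPM in KO mTEChi and 2.33 in WT mTEChi, and 0.474 in KO mTEClo and 0.420 in WT mTEClo. Of 16 thymocyte and T cell markers, 11 were tested, with 1 higher and 6 lower in KO mTEChi, against 25.7% and 28% of all genes tested. Their summed level was nevertheless 307 to 471 CPM in KO mTEChi and 279 to 317 CPM in WT mTEChi, of which Tcf7 alone averaged 265 CPM in KO and 130.4 CPM in WT. Of 9 B cell markers, 8 were tested, with 4 higher and 3 lower in KO mTEChi, against 25.7% and 28% of all genes. They summed to 275 to 362 CPM in KO mTEChi and 191 to 251 CPM in WT mTEChi, though members went both ways. Of 9 natural killer and innate lymphocyte markers, Ncr1, Klrb1c and Klrk1 were at 0 in all KO mTEChi libraries, while the list summed to 199.7 to 243 CPM in KO and 107 to 132 CPM in WT. The 5 regulatory T cell markers summed to 183 to 293 CPM in KO mTEChi and 77.1 to 84.3 CPM in WT mTEChi, mostly Ctla4, at 133 CPM in KO and 15.6 CPM in WT, while Foxp3 averaged 1.88 CPM in KO and 2.16 CPM in WT. In mTEClo the T cell list summed to 95 to 133 CPM in KO and 99.7 to 109.7 CPM in WT, and the dendritic cell and macrophage list to 235 to 282 CPM in KO and 112 to 153 CPM in WT. The regulatory T cell list there summed to 102 to 146 CPM in KO and 70.6 to 90.0 CPM in WT, without overlap. The B cell list, with 4 higher and 1 lower of 8 tested in mTEClo against 12% and 9.69% of all genes, summed to 70.3 to 101 CPM in KO and 51.7 to 74.1 CPM in WT. The part of these lists in the result was not tested. A gene model on the same strand, Gm20489, shares 728 exonic bases with Il2rg and had 3 reads in all.

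Il4ra, the alpha chain of the receptors for IL-4 and IL-13, had 675, 652, 521 and 568 CPM in KO mTEChi, against 291 to 386 CPM with a median of 342 in WT mTEChi. No WT library came near the KO range. The increase was 1.81-fold (log2 0.86 ± 0.10, adjusted p = 3.5e-08). In mTEClo, Il4ra had 347, 306, 277 and 236 CPM in KO and 218 to 279 CPM with a median of 262 in WT. The groups overlapped, and the change of 0.19 ± 0.10 did not pass (adjusted p = 0.19). The KO effects differed by 0.67 ± 0.14 on the log2 scale (adjusted p = 0.00054). Gm44876, on the opposite strand, shares 571 exonic bases with Il4ra and had 121 reads in all.

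Il15ra, the private chain that holds IL-15 at the cell surface, had 246, 263, 243 and 251 CPM in KO mTEChi, against 142 to 169.8 CPM with a median of 150.3 in WT mTEChi. The 2 ranges were wide apart, and the increase was 1.62-fold (log2 0.70 ± 0.09, adjusted p = 4.9e-07). In mTEClo, Il15ra had 189, 234, 169 and 172 CPM in KO and 190.4 to 265 CPM with a median of 225 in WT. The KO libraries were mostly at or under the lower WT values, yet overlapped them, and the change of -0.26 ± 0.10 did not pass (adjusted p = 0.051). It passed without any one of 5 libraries, which were KO replicate 2 and WT replicates 5 and 7 of mTEClo and WT replicates 1 and 3 of mTEChi, with adjusted p from 0.0052 to 0.049. In all it passed under 12 of 39 other settings, among them DESeq2, voom and without the libraries under 2000000 counts (-0.38, adjusted p = 0.0089). The last of these keeps KO mTEClo libraries of 6 weeks alone. With age as a term the Il15ra change in mTEClo did not pass (-0.23, adjusted p = 0.29). The KO effect of Il15ra differed between mTEChi and mTEClo by 0.96 ± 0.13 on the log2 scale (adjusted p = 2.9e-06). Il15 and Il15ra were thus both higher in KO mTEChi, whereas in KO mTEClo only the change of the ligand passed in the main fit.

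Il7r, the chain shared by the IL-7 and TSLP receptors, had 8.34, 13.1, 25.0 and 24.2 CPM in KO mTEChi, against 20.2 to 31.6 CPM with a median of 24.6 in WT mTEChi. The KO libraries of 5 weeks were below all WT libraries and those of 6 weeks were within the WT range. Over all libraries the change of -0.53 ± 0.23 did not pass (adjusted p = 0.055). Among males of 5 weeks, 2 KO and 3 WT libraries of mTEChi, it was -1.14 (adjusted p = 0.001). It passed without KO replicates 3 or 4 or WT replicate 6 of mTEChi, without KO replicates 1, 2 or 4 of mTEClo and without WT mTEClo replicate 5, with adjusted p from 0.01 to 0.047. In all it passed under 17 of 39 other settings, among them DESeq2, voom, each other scaling and filter, and age as a term (-0.72, adjusted p = 0.043). It did not pass without the libraries under 2000000 counts (-0.47, adjusted p = 0.1). In mTEClo, Il7r had 2.71, 7.51, 5.36 and 8.26 CPM in KO and 7.47 to 12.7 CPM with a median of 10.3 in WT. KO libraries took the low end with some overlap, and Il7r fell by 0.79 ± 0.28 (adjusted p = 0.042). That call was lost without any one of 7 libraries, namely KO replicates 1 and 3 and WT replicates 2, 3, 4 and 6 of mTEClo and WT replicate 4 of mTEChi (-0.81 to -0.62, adjusted p from 0.052 to 0.13), and without the 6 libraries under 2000000 counts (-0.65, adjusted p = 0.17). The latter setting keeps KO mTEClo libraries of 6 weeks alone. With age as a term the Il7r change in mTEClo was -1.07 (adjusted p = 0.083), and among males of 5 weeks, with 1 WT library, it was -1.06.

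Il2ra, the alpha chain of the high-affinity IL-2 receptor, had 82.9, 80.6, 95.2 and 105 CPM in KO mTEChi, against 92.5 to 125 CPM with a median of 105 in WT mTEChi. The ranges overlapped and the change of -0.21 ± 0.19 did not pass (adjusted p = 0.35), while among males of 5 weeks it was -0.39 (adjusted p = 0.012). In mTEClo, Il2ra had 61.7, 78.9, 34.0 and 34.2 CPM in KO and 53.5 to 93.5 CPM with a median of 63.6 in WT. The KO libraries of 6 weeks were below all WT libraries, and those of 5 weeks, both under 2000000 reads, were within the WT range. The change of -0.47 ± 0.20 did not pass (adjusted p = 0.098), but was -0.95 without the libraries under 2000000 counts (adjusted p = 0.0013) and -0.73 without KO mTEClo replicate 2 (adjusted p = 0.0067).

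Crlf2, the chain that makes the TSLP receptor together with IL-7RA, had 15.4, 11, 11.3 and 9.61 CPM in KO mTEChi, against 0.600 to 10.5 CPM with a median of 4.2 in WT mTEChi. The lowest WT values, 1.24 and 0.600 CPM in replicates 1 and 2, were 2 and 1 reads in libraries under 2000000 counts. These were also the only WT mTEChi libraries of 4 weeks, so depth and age cannot be told apart there. They were the lowest WT mTEChi libraries for Il15, Il4ra and Jak3 too. In the other direction, 1 WT library reached into the KO range of Crlf2. Crlf2 was 2.77-fold higher in KO mTEChi (log2 1.47 ± 0.34, adjusted p = 7e-04). Without the libraries under 2000000 counts the log2 change of Crlf2 was 1.21 (adjusted p = 0.0025), and with age as a term it was 1.11 (adjusted p = 0.017). In mTEClo, Crlf2 had 9.20, 10.6, 13.1 and 10.2 CPM in KO and 6.12 to 19.1 CPM with a median of 8.38 in WT. The KO values lay inside the WT range, and the change of 0.47 ± 0.32 did not pass (adjusted p = 0.3). The difference of its KO effects, 1.00 ± 0.44, did not pass either (adjusted p = 0.1), but did without WT mTEClo replicate 5 or WT mTEChi replicate 3 (adjusted p from 0.042 to 0.044).

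The kinase gene Jak3 had 117, 102, 65.0 and 78.1 CPM in KO mTEChi, against 39.0 to 66.6 CPM with a median of 58.4 in WT mTEChi. The KO libraries of 5 weeks were highest, and 1 KO library of 6 weeks fell inside the WT range. The increase was 1.69-fold (log2 0.76 ± 0.15, adjusted p = 9.9e-05). In mTEClo, Jak3 had 110.4, 116, 107 and 84.7 CPM in KO and 76.3 to 118 CPM with a median of 96.7 in WT, which covered the KO values. The change of 0.16 ± 0.14 did not pass (adjusted p = 0.44). The KO effects of Jak3 differed by 0.60 ± 0.20 (adjusted p = 0.028), a call lost without KO replicates 1 or 2 of mTEChi or KO replicate 4 of mTEClo (0.46 to 0.53, adjusted p from 0.07 to 0.098). It was lost under 6 other settings too, with the replicate block (0.55, adjusted p = 0.052), on library totals (0.41, adjusted p = 0.11), with upper quartile factors (0.50, adjusted p = 0.059), at a minimum count of 30 (0.51, adjusted p = 0.061), without the libraries under 2000000 counts (0.59, adjusted p = 0.053) and in males alone (0.56, adjusted p = 0.077). A neighbouring gene on the same strand, Insl3, shares 404 exonic bases with Jak3 and had 36 reads in all.

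**Figure D2:**
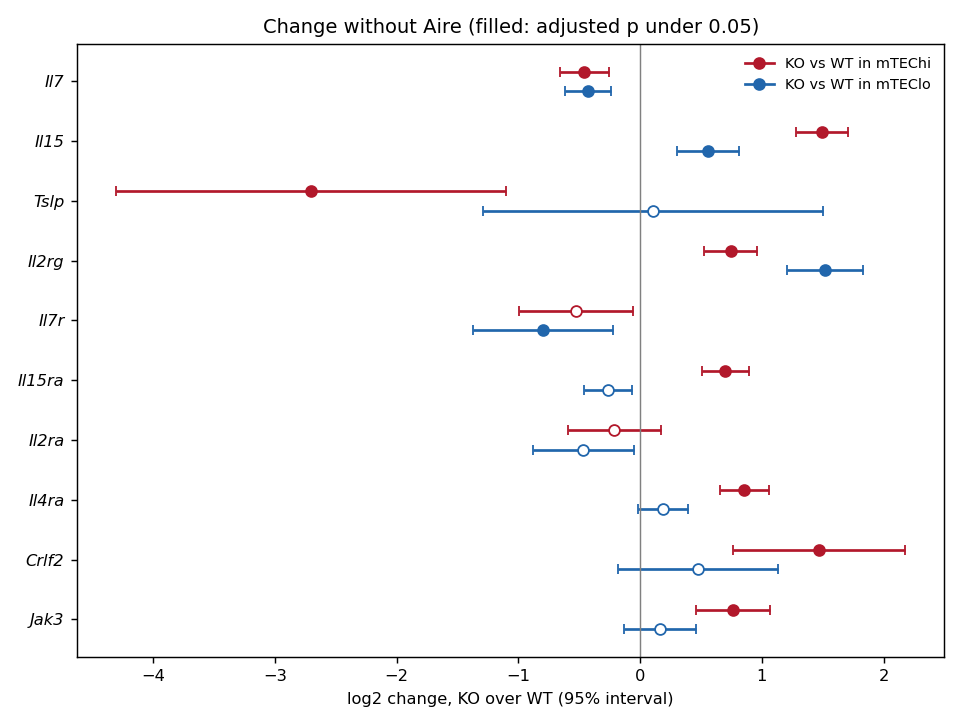
Log2 change of KO over WT for each of the 10 genes in mTEChi and in mTEClo, with 95% intervals, a line at 0 and filled points where the adjusted p was under 0.05. Il15, Il15ra, Il4ra and Jak3 had larger changes in mTEChi than in mTEClo, whereas that of Il2rg was 0.74 in mTEChi and 1.52 in mTEClo.

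In KO mTEChi, 6 of the 10 genes were higher (Il2rg, Il15, Il15ra, Il4ra, Jak3 and Crlf2), 2 were lower (Il7 and Tslp) and 2 did not pass (Il7r and Il2ra). Of all genes tested in that comparison 53.7% passed, 25.7% as higher and 28% as lower. The groups did not overlap for 6 of the 10 genes, against 38% of all genes. The median log2 change was 0.72 over the 10 genes and -0.01 over all genes. In KO mTEClo, 2 were higher (Il2rg and Il15), 2 were lower (Il7 and Il7r) and 6 did not pass, where 21.7% of all genes passed, 12% as higher and 9.69% as lower. Groups did not overlap for 3 of the 10 genes in mTEClo, against 11.7% of all genes. The median there was 0.14 over the 10 genes and 0.006 over all genes. The KO effect differed between the populations for 5 of the 10 genes, against 24.8% of all genes, and on the log2 scale it was higher in mTEChi for 4 of them and lower for 1, Il2rg, against 10.8% and 14% of all genes. The difference for Tslp, -2.81 ± 1.04, did not pass (adjusted p = 0.05), but did without any one of 7 libraries, which were KO replicates 1, 2 and 3 and WT replicates 6 and 8 of mTEClo and KO replicate 3 and WT replicate 4 of mTEChi (adjusted p from 0.0075 to 0.045) and with the replicate block (-3.05, adjusted p = 0.038). KO libraries were of 5 or 6 weeks and WT libraries of 4 or 5 weeks, so that age and genotype cannot be told apart fully. Males of 5 weeks gave 2 KO and 3 WT libraries in mTEChi, but 2 KO libraries and 1 WT library in mTEClo, so in mTEClo and for the difference of the KO effects they give no check of age and sex on the WT side.

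The sorted populations differed in all 10 genes in WT mice, where 70.1% of all genes passed, and 6 were higher and 4 lower in mTEChi, against 36.7% and 33.4% of all genes. Groups did not overlap for 7 of the 10 genes, against 44.4% of all genes. Il2rg was the member with the largest difference, 11.8-fold higher in WT mTEChi than in WT mTEClo (log2 3.56 ± 0.11, adjusted p = 4.2e-21). Il15 was 2.45-fold higher in mTEChi (log2 1.29 ± 0.10, adjusted p = 6.1e-13) and Il7r 2.39-fold higher (log2 1.26 ± 0.19, adjusted p = 9e-07). Tslp was higher too (log2 1.45 ± 0.49, adjusted p = 0.012), as were Il2ra (0.62 ± 0.15, adjusted p = 0.00069) and Il4ra (0.39 ± 0.08, adjusted p = 1e-04). The genes lower in mTEChi were Il7, which fell by 1.27 ± 0.08 on the log2 scale (adjusted p = 5.3e-15), Jak3 (-0.80 ± 0.12, adjusted p = 1.1e-06), Il15ra (-0.56 ± 0.08, adjusted p = 2.1e-07) and Crlf2 (-0.88 ± 0.28, adjusted p = 0.0065). Among WT males of 5 weeks, 3 libraries of mTEChi against 1 of mTEClo, the difference of Tslp was 0.0098 and that of Crlf2 was -0.92.

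In KO mice 7 of the 10 genes passed between the populations, where 57.2% of all genes did, and 6 were higher and 1 lower in mTEChi, against 29.2% and 28% of all genes. Groups did not overlap for 7 of the 10 genes, against 47.2% of all genes. Il2rg was 6.91-fold higher in KO mTEChi than in KO mTEClo (log2 2.79 ± 0.13, adjusted p = 9.7e-17), and Il15 was 4.70-fold higher (log2 2.23 ± 0.12, adjusted p = 2.5e-15). Il7 fell by 1.30 ± 0.10 (adjusted p = 8.2e-12), a size near that in WT mice. Il15ra was higher in mTEChi of KO mice, with a log2 difference of 0.40 ± 0.10 (adjusted p = 0.0016), whereas in WT mice it was lower in mTEChi. Il7r (1.52 ± 0.29), Il4ra (1.06 ± 0.11) and Il2ra (0.87 ± 0.21) were higher in KO mTEChi as well, with adjusted p of 4.8e-05, 1.9e-09 and 0.0011. Among KO males of 5 weeks, 2 libraries of each population, Il15ra (0.25, adjusted p = 0.059) and Il2ra (0.21, adjusted p = 0.29) did not pass. Jak3 (-0.20 ± 0.16, adjusted p = 0.3), Tslp (-1.37 ± 0.92, adjusted p = 0.22) and Crlf2 (0.11 ± 0.34, adjusted p = 0.8) did not pass in KO mice. The medians over the 10 genes were 0.64 in KO mice and 0.50 in WT mice, with 0 and 0.0027 over all genes.

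**Figure D3:**
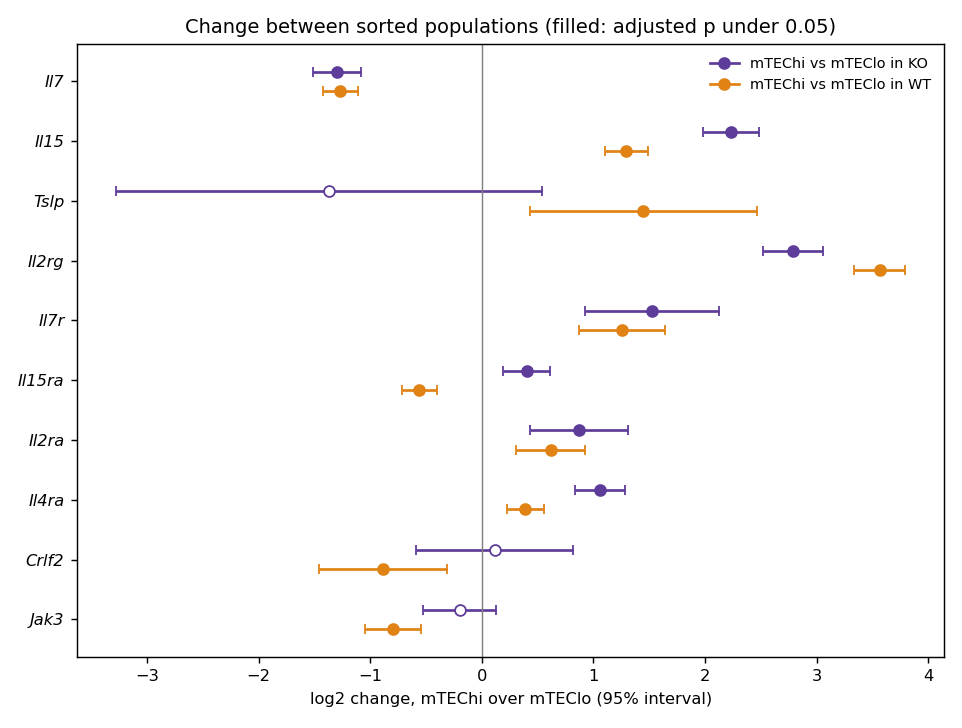
Log2 difference of mTEChi over mTEClo for each of the 10 genes in KO and in WT mice, with 95% intervals, a line at 0 and filled points where the adjusted p was under 0.05. Il2rg, Il7r, Il15, Il2ra and Il4ra lay above 0 and Il7 below 0 in both genotypes, while Il15ra was at 0.40 in KO and -0.56 in WT.

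Per kilobase of exon, the order of the levels differed between the groups. In KO mTEChi, Il4ra was highest with 100.6 ± 12 CPM per kb, followed by Il15 with 65.8 ± 5.08, Il2rg with 58.4 ± 1.56 and Il15ra with 56.4 ± 1.98, the last pair with overlapping ranges. Jak3, Il2ra and Il7 came next, between 14.8 and 16.9 CPM per kb on average and overlapping, then Crlf2 with 7.91 ± 1.65. Il7r with 3.79 ± 1.77 and Tslp with 0.765 ± 0.704 were lowest, and their ranges overlapped. In WT mTEChi, Il4ra led with 56.2 ± 5.83 CPM per kb, ahead of Il15ra with 34.7 ± 2.38 and Il2rg with 33.7 ± 1.77, which overlapped. Il15, Il7 and Il2ra followed there, each overlapping the next, between 18.6 and 24.3 CPM per kb, then Jak3 with 10.3 ± 1.9. Il7r, Tslp and Crlf2 were lowest, at 3.22 to 5.33 CPM per kb, and overlapped.

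In mTEClo the ligand Il7 stood among the highest genes. In KO mTEClo, Il4ra with 48.5 ± 7.84, Il15ra with 43.0 ± 6.79 and Il7 with 36.2 ± 4.24 CPM per kb overlapped in turn, ahead of Jak3 with 19.5 ± 2.55. Il15, Il2ra, Il2rg and Crlf2 overlapped from one to the next, between 7.22 and 13.8 CPM per kb, above Tslp with 1.70 ± 2.31 and Il7r with 1.28 ± 0.53. In WT mTEClo, Il15ra with 51.2 ± 5.40, Il7 with 48.3 ± 4.05 and Il4ra with 43.2 ± 3.05 overlapped in the same way. Jak3, Il2ra, Il15 and Crlf2 followed there at 6.77 to 18.4 CPM per kb, each overlapping the next. Il2rg with 2.82 ± 0.68, Il7r with 2.18 ± 0.44 and Tslp with 1.83 ± 1.98 were lowest and overlapped, so the shared gamma chain gene was a low member in WT mTEClo and a high one in both mTEChi groups. By the length of the longest transcript, Il15ra moved up to the first place in WT mTEChi and in KO mTEClo and to the second in KO mTEChi, where Il15 then took the fourth.

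**Figure D4:**
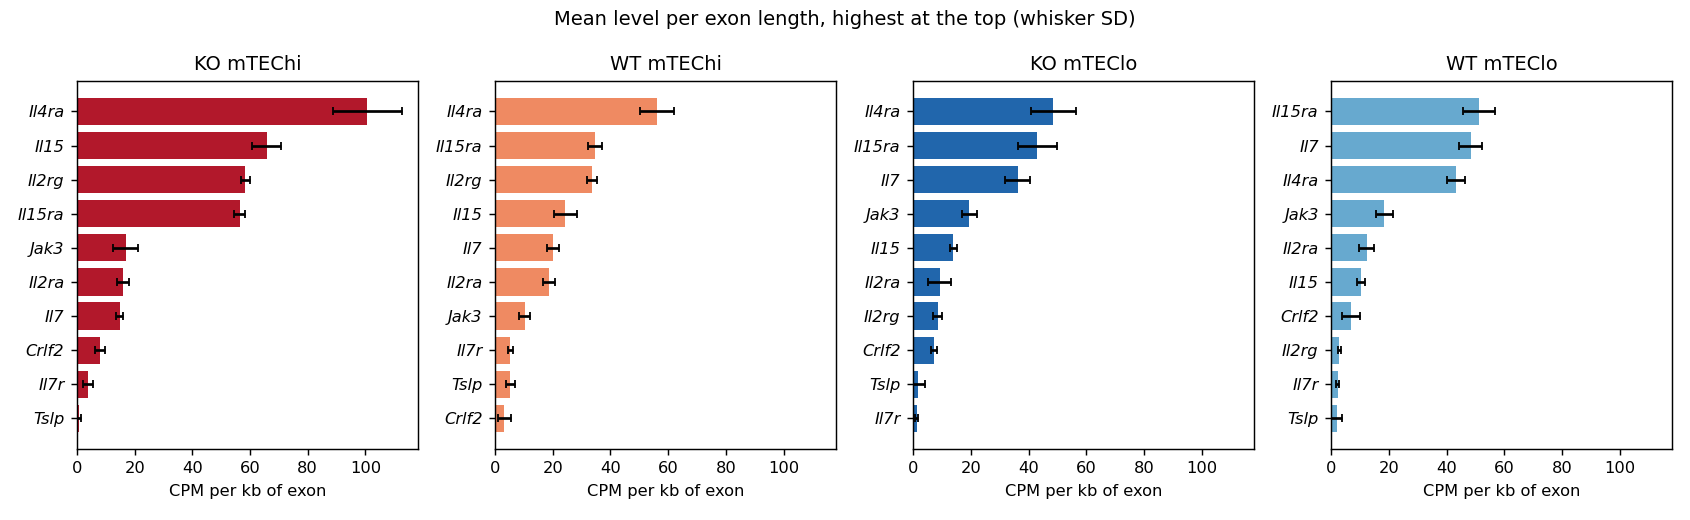
Mean CPM per kb of exon of the 10 genes in each group, with the SD as whiskers, on a linear axis from 0 and with the highest gene at the top. Il4ra was highest in both mTEChi groups, and Il2rg was among the 3 lowest genes in WT mTEClo.

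The other genes of the pathway were counted over a list of 26 ligands, receptor chains, kinases, signal transducers and targets, of which 25 were tested and Il2 was too low. In KO mTEChi 15 were higher, 4 lower and 6 did not pass, where 25.7% of all genes were higher and 28% lower, and the median log2 change was 0.61 over the list and -0.01 over all genes. In KO mTEClo 9 were higher, 3 lower and 13 did not pass, where 12% of all genes were higher and 9.69% lower, and the median was 0.22 over the list and 0.006 over all genes. Both ligands of the IL-4 receptor alpha chain were higher in KO: Il13 averaged 201.6 ± 29.1 CPM in KO mTEChi and 81.6 ± 5.13 CPM in WT mTEChi (log2 1.30 ± 0.17, adjusted p = 4.6e-07), and 12.4 ± 5.10 CPM in KO mTEClo and 1.95 ± 1.46 CPM in WT mTEClo (log2 2.55 ± 0.33, adjusted p = 3.7e-06). Il4 averaged 20.2 ± 5.39 CPM in KO mTEChi and 7.69 ± 2.26 CPM in WT mTEChi (log2 1.31 ± 0.33, adjusted p = 0.0016), with a log2 change of 1.38 ± 0.49 in mTEClo (adjusted p = 0.045). Il9 went the other way: it had 2 reads in all KO mTEChi libraries together and a mean of 5.09 ± 2.05 CPM in WT mTEChi (adjusted p = 8.4e-06).

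Of the private receptor chains, Il9r averaged 186 ± 26.9 CPM in KO mTEChi and 71.8 ± 11.4 CPM in WT mTEChi (log2 1.36 ± 0.14, adjusted p = 7.9e-09), and Il21r 158 ± 38.6 CPM in KO and 41.9 ± 10.2 CPM in WT (log2 1.92 ± 0.22, adjusted p = 9.6e-08). Both were higher in KO mTEClo too, Il9r by 1.83 ± 0.19 (adjusted p = 4e-08) and Il21r by 2.39 ± 0.41 (adjusted p = 1.6e-04). Il2rb, the beta chain through which IL-2 and IL-15 signal, was at 32.8 ± 5.05 CPM in KO mTEChi and 33.8 ± 7.26 CPM in WT mTEChi, a log2 change of -0.04 with a 95% interval from -0.49 to 0.40. Downstream, Stat5b averaged 307 ± 18.1 CPM in KO mTEChi and 146 ± 20.7 CPM in WT mTEChi (log2 1.10 ± 0.10, adjusted p = 6.5e-10), and Stat5a rose by 0.74 ± 0.15 (adjusted p = 3e-04). The pathway gene Cish rose by 0.61 ± 0.15 in mTEChi and 0.62 ± 0.15 in mTEClo (adjusted p = 0.0012 and 0.0043). The inhibitor gene Socs1 rose by 0.82 ± 0.21 in mTEChi and 1.14 ± 0.24 in mTEClo (adjusted p = 0.0021 and 0.0014), and the kinase gene Pim1 by 0.79 ± 0.15 in mTEChi (adjusted p = 4.5e-05). Socs2, another inhibitor gene, fell by 1.24 ± 0.16 in mTEChi (adjusted p = 3.3e-07).

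**Figure D5:**
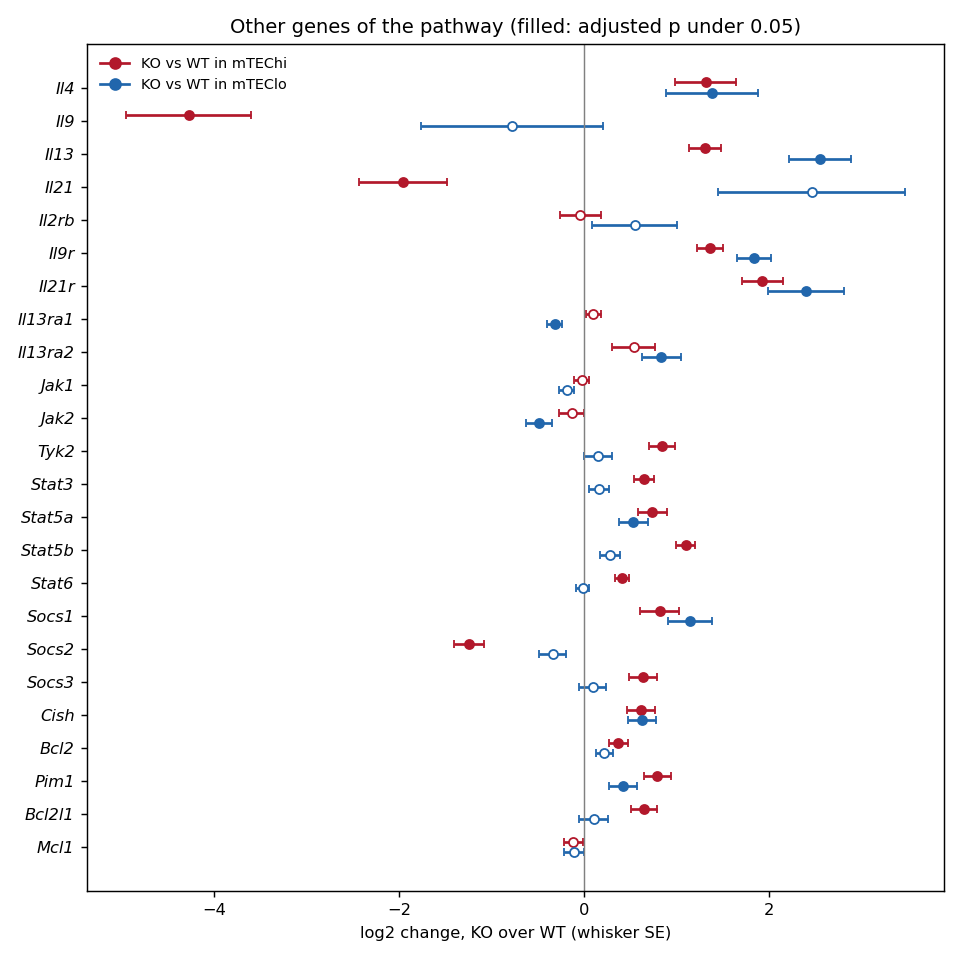
Log2 change of KO over WT for 24 of the 25 other tested genes of the pathway in mTEChi and in mTEClo, with the SE as whiskers, a line at 0 and filled points where the adjusted p was under 0.05. Il13, Il9r and Il21r lay above 0 in both populations, and Il9 was lowest in mTEChi.

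As background within these cells, a support list of 10 thymic epithelial genes and 10 genes of tuft cells and type 2 alarmins were counted as well. The support list mixes factors for T cell precursors with markers of cortical epithelium such as Enpep and Ly75, so its counts are no measure of precursor support. Of the support list 3 were higher and 4 lower in KO mTEChi, while 8 were higher and 0 lower in KO mTEClo, with 2 that did not pass. The shares of all genes were 25.7% higher and 28% lower in KO mTEChi, and 12% higher and 9.69% lower in KO mTEClo. In KO mTEChi, Enpep fell by 3.93 ± 0.30 and Cxcl12 by 1.97 ± 0.39, the protease gene Ctsl fell by 1.55 ± 0.15, and Ly75 rose by 0.77 ± 0.10 (adjusted p = 1.6e-11, 1.6e-04, 8.9e-10 and 5.3e-07). Of the tuft and alarmin genes 0 were higher and 3 lower in KO mTEChi, and 4 were higher and 1 lower in KO mTEClo, beside the same shares of all genes. Il33, an epithelial alarmin gene like Tslp, had 4 reads in all in KO mTEChi and 10.2 ± 2.57 CPM in WT mTEChi (adjusted p = 0.0027). The tuft cell genes Dclk1 and Avil fell by 1.74 ± 0.16 and 0.61 ± 0.16 there (adjusted p = 4.5e-10 and 0.0024), and Alox5, at 0.42 ± 0.18, did not pass (adjusted p = 0.055).

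Between female and male WT libraries none of the 10 genes passed in edgeR's test, where 8 genes did in all, 0.0414% of those tested. At an unadjusted p under 0.05 there were 2, with log2 differences of 0.78 ± 0.27 for Crlf2 and 0.24 ± 0.10 for Il15. No other tool was run for this comparison.

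The genes whose log2 CPM ran most like that of each member over the 23 libraries were taken by Pearson's r, as a description without a test, since the libraries fall into 4 groups that set most of it. For Il2rg they were Rassf2 (r = 0.991), Blnk and N4bp2l1, and for Il15 they were Cnnm2 (0.987), Dap and Qsox2. Il7 ran with Osmr (0.985), Trim12a and Ddx58, and Il7r with Plk4 (0.937), Ttll6 and Magt1. Il4ra ran with Plbd2 (0.976), Lingo1 and the pathway gene Stat5b (0.971). Il15ra was most like Ptpn14 (0.899), Snx33 and Lrig1, and Il2ra most like Skint1 (0.9), Spag5 and Pdia4. Jak3 ran with Tln1 (0.975), Cic and Atp13a2, and Crlf2 with Irs2 (0.949), Naa80 and Fbrsl1. Tslp was under the minimum mean of 5 CPM. Among the members themselves, Il7 and Il2rg ran opposite to each other (r = -0.973), and Il15 and Il4ra ran together (r = 0.933).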

How the data were processed

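Counts per Ensembl gene were used as deposited by the authors, 1 column for each of 23 libraries. The submitters' processing notes name HTSeq 0.11.2, Picard 2.21.1, fastp 0.20.0, SAMtools 1.9, edgeR and STAR 2.7.3a, and the builds GRCm38 and mm10, with no role for any. Per the labels' protocols, cDNA primed by not-so-random primers plus oligo dT was tagmented with Tn5, so that strand is lost. A normalized table deposited by the authors was not used.

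Of 53402 genes, 19310 passed filterByExpr at a minimum count of 10, and TMM gave the scaling. Quasi-likelihood fits in edgeR 4.0.16 (R 4.3.3) took all 23 libraries with terms for group and sex, with 0.05 as the threshold on p adjusted by Benjamini-Hochberg over all genes tested. The SE is the log2 change divided by the square root of F. Levels per kb used GENCODE exon unions, and correlations log2 CPM with a prior count of 2. CPM precision is set by the counts, and all intervals cover the spread between libraries under the fit. The fit was tried on simulated counts for KO over WT in mTEChi only. All genes had the same spread there, without effects of sex, age or pairing, and genes of the lowest counts were not changed. The other comparisons were not tried in this way.

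The members and lists were chosen with earlier results of these data known. All members were named, with up to 12 other pathway genes past the threshold in the KO comparisons (9 passed in both populations, of which 1 is not reported here, and Stat5b, Il9 and Socs2 were added after their values were seen, as was Il2rb), 4 support and 4 tuft genes of smallest p, and the 3 genes most like each member. Genes that place the libraries (Aire, Epcam, blood cell markers) were chosen after their values were seen. Same-numbered KO libraries of mTEChi and mTEClo deviated together over genes (correlations 0.164, 0.197, 0.139 and 0.222). Of the KO mTEChi libraries, replicates 2 and 4 correlated most with their own number, and replicates 1 and 3 with another. Replicates 1 and 2 were of 5 weeks and 3 and 4 of 6 weeks in both populations, so shared age and pairing cannot be told apart. Numbers were fitted as pairs only in the replicate block, not in the main fit. The alternatives were RLE, upper quartile and no factors, no filter and a minimum count of 30, DESeq2 1.42.0, limma 3.58.1 voom, other covariates and subsets, stricter thresholds, the replicate block and leaving out each library.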

Additional observations from a re-analysis of the deposited data

Results flagged for a closer look

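Il4ra in WT mTEClo replicate 4 had 218 CPM, with the next library of its group at 257 CPM, a gap of 0.629 of the whole range, and so stood apart from the other 7. It was the only one of 40 groups to do so, and chance flags about 1 in 20 groups. The KO effect differed between mTEChi and mTEClo, by the test of the difference itself in edgeR, for 5 genes. On the log2 scale the KO effect in mTEChi minus that in mTEClo was -0.78 for Il2rg, 0.94 for Il15, 0.96 for Il15ra, 0.67 for Il4ra and 0.60 for Jak3.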

How the results depend on the processing

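The settings counted first left the thresholds as they were, with up to 39 per change, and stricter thresholds are given after them. Of the 34 changes called over the 5 comparisons, 25 kept direction and call under every such setting in which they could be tested. The call was lost under at least one for 9, and 0 reversed. Of the 16 that were not called, 7 passed somewhere. With a change of over 2-fold required as well, 3 of the 10 genes and 4492 genes in all passed in KO mTEChi, 1 and 1506 in KO mTEClo, 5 and 6937 between the populations in WT, 6779 in all between them in KO, and 0 and 2614 for the difference of the KO effects. At an adjusted p under 0.01, 2240 genes passed in KO mTEClo and 2856 for that difference. With age as a term, 2 of the 10 genes and 1504 in all passed in KO mTEClo. Among males of 5 weeks, where WT mTEClo had 1 library, assumed to vary like the other groups, 1688 genes passed in KO mTEClo, and 3 of the 10 and 2478 in all for the difference of the KO effects. Leaving out each library in turn gave 8 to 9 of the 10 genes in KO mTEChi (9623 to 10844 in all), 3 to 6 in KO mTEClo (3126 to 4290), 10 to 10 between the populations in WT (12838 to 14201), 7 to 7 in KO (10557 to 11221), and 4 to 6 for the difference (4234 to 4832).

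With the replicate block, 9 of the 10 genes passed in KO mTEChi, where Il7r was -0.65 (adjusted p = 0.026), 4 in KO mTEClo, 10 between the populations in WT, 7 in KO and 5 for the difference, where Jak3 no longer passed (0.55, adjusted p = 0.052) and Tslp did (-3.05, adjusted p = 0.038). In WT and between genotypes the correlations of same-numbered libraries ran from -0.179 to 0.0979. KO mTEClo replicates 2, 3 and 4 still correlated most with their own number in WT mTEClo. Only replicate 6 of WT mTEChi did so with WT mTEClo, and no KO mTEChi library did so with WT mTEChi. A replicate block fitted to the groups compared alone, chosen after seeing the data, gave 7, 3, 9 and 7 of the 10 genes in the same order of comparisons, with 2373 genes in all in KO mTEClo, where Il15 was 0.51 (adjusted p = 0.052). The block changed no call between the populations in KO, where same-numbered libraries correlated at 0.139 to 0.222.

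Signs turned only among changes that were not called, and mostly for rare Tslp. In mTEClo the log2 change of Tslp in KO was -0.062 with DESeq2, -0.057 with voom, -1.92 with age, -3.67 among males of 5 weeks, set against WT replicate 6 alone, the highest WT library, and -1.57 to 0.87 with each library left out in turn, below 0 without KO replicate 4 or WT replicates 2, 3 or 4. That of Crlf2 was -0.11 with age. Between the populations in KO, Tslp was 0.11 among males of 5 weeks and -2.32 to 0.29 with each library left out, above 0 without KO mTEClo replicate 4, and Crlf2 was -0.026 on library totals and -0.032 to 0.21, below 0 without KO mTEChi replicate 1. For the difference of the KO effects, males of 5 weeks gave 0.059 for Il7, -0.073 for Il7r, -0.22 for Il2ra and 0.095 for Tslp, and with each library left out Il7 lay at -0.086 to 0.050 and Il7r at -0.014 to 0.53. The causes were not tested. Tslp and Crlf2 rest on few reads, and that depth limits what could be detected for them.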
